A study of Sus scrofa with 37 samples.

Results

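The 12 arrays described here measured the blood cell transcriptome of the 6 pigs that were fed a diet low in digestible phosphorus (L), at 63 days postnatum (dpn) and at 28 dpn. They were chosen by the dietary label and the age, and the arrays of both ages were matched by the pig number in the sample title, which gave pigs 1, 4, 10, 14, 17 and 20. They are 12 of 37 arrays and 6 of the 19 pigs numbered in the sample titles of the series, in which other pigs received a medium (M) or high (H) phosphorus diet. All were German Landrace piglets from several litters, which the labels do not tell apart. Their feed was based on cereals and soybean without added phytase, and the diets also differed in their ratio of calcium to phosphorus. Pigs 1, 10 and 17 carry the sex label m and pigs 4, 14 and 20 the label w. The 6 L samples at 63 dpn came from pigs that had received the L diet since weaning at 28 dpn, and the 6 samples at 28 dpn came from the same pigs before the diet began. Each array was hybridised with RNA of peripheral blood mononuclear cells (PBMC) of 1 pig, and its values are log2 units after robust multi-array average (RMA) normalization. The comparison asks which transcripts differed in abundance after the weeks on the L diet. Age, weaning and diet all differ between the 2 samplings and cannot be told apart within the L pigs.

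Phosphate in the blood is held within limits by calcitriol, parathyroid hormone and FGF23, which act on gut, bone and kidney, and a diet short of phosphorus is known to raise calcitriol and to draw mineral from bone. PBMC are lymphocytes and monocytes separated from blood on a density gradient, and they carry the receptors for several of these hormones. Among their programs are the import of fatty acids into mitochondria, for which CPT1A makes the acylcarnitines, and the response to interferon, in which a viral or other stimulus switches on a common set of antiviral genes.

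The 12 L arrays had medians of 5.26 to 5.41, and no pair of them correlated above 0.296 after each probe set was centred, so none looked like a repeated array. A probe set that separates the labelled sexes in the other diets placed 12 of 12 L arrays on the side of their label. Of the marker genes with a probe set, all 16 of T cells, 11 of 11 of B cells and 13 of 15 of monocytes lay above the array median on all 12 arrays. So did 10 of 10 erythroid and 9 of 11 neutrophil markers, cells that the gradient is meant to remove. The sample of pig 1 at 63 dpn stood apart in its platelet transcripts, which are described with the cell types. The platelet, CPT1A and interferon results are also given without this pig.

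Of 28086 probe sets that passed the filters on spread and level, 1 differed between 63 and 28 dpn at P and q of 0.05 or less (limma with pig as a block), which is 0.00356%. It was CPT1A, which fell. Without adjustment, 723 probe sets (2.57%) were higher and 876 (3.12%) lower at 63 dpn at a P of 0.05 or less. Of all probe sets 49.6% had a higher mean at 63 dpn. All 6 pigs were higher at 63 dpn for 548 probe sets (1.95%) and all 6 lower for 830 (2.96%). The 6 values at 63 dpn lay wholly above those at 28 dpn for 37 probe sets (0.132%) and wholly below for 75 (0.267%). An unadjusted P of 0.01 or less together with 6 of 6 pigs on the same side was met by 93 probe sets that were higher (0.331%) and 119 that were lower (0.424%). Changes ran from -1.94 to 1.41 on the log2 scale around a median of -0.00169, and 55 probe sets were lower by 1 or more, against 12 that were higher by as much.

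**Figure D1:**
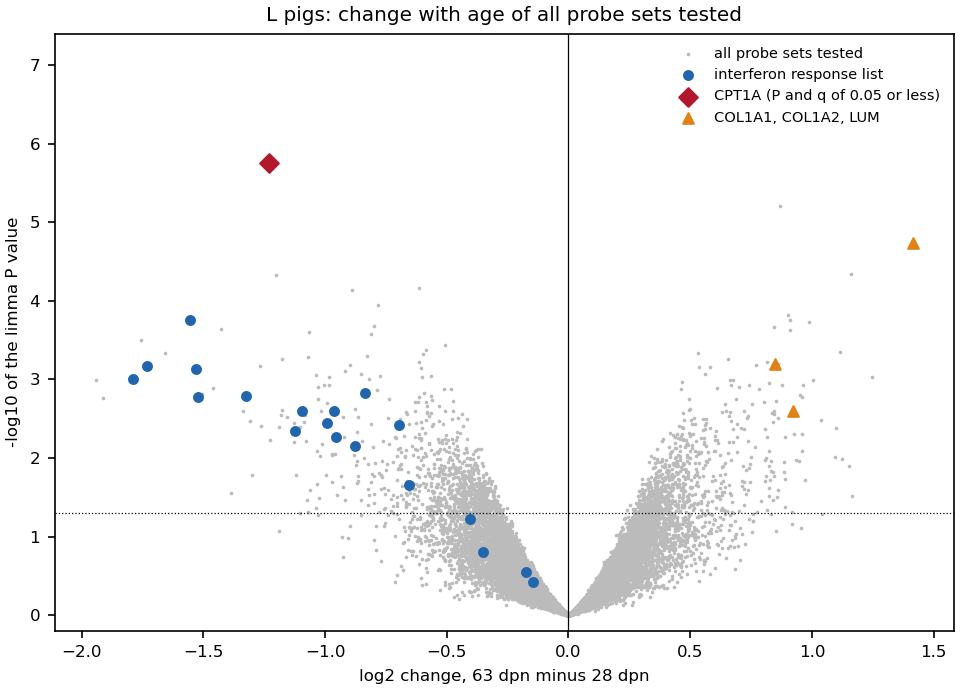
Each point is 1 of the 28086 probe sets tested in L pigs, with the log2 change (63 dpn minus 28 dpn) on the x axis and -log10 of the limma P value on the y axis, the dotted line marking a P of 0.05. CPT1A at -1.23 stands above all others, the 19 interferon response genes all lie left of 0, and COL1A1 at 1.41 is the point farthest to the right.

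CPT1A, carnitine palmitoyltransferase of the outer mitochondrial membrane and the gatekeeper of fatty acid oxidation, had log2 values of 7.51, 7.56, 7.61, 7.47, 7.61 and 7.82 at 63 dpn in pigs 1, 4, 10, 14, 17 and 20, against 9.07, 8.84, 8.78, 8.60, 8.68 and 8.96 at 28 dpn. Every pig was lower at 63 dpn, and the highest value at 63 dpn was below the lowest at 28 dpn. The means were 7.59 ± 0.12 at 63 dpn and 8.82 ± 0.18 at 28 dpn (SD, n = 6 each). This is a log2 change of -1.23 with an SE of 0.19 and a 95% interval from -1.62 to -0.83, or 2.34-fold lower (limma, q = 0.0479). The changes of single pigs had an SD of 0.18, so the decrease was of similar size in each animal. The call sat close to its threshold: with any 1 pig left out the change stayed between -1.26 and -1.16, but q was 0.120 to 0.248. The call was also lost without the pig block (q = 0.0625), with pig as a random effect (q = 0.0665), with unmoderated variances (q = 0.153), with arrays centred on their medians (q = 0.0622) and without the filters on spread and level.

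The array holds 4 probe sets named CPT1A, and the change was seen on 1 of them. The others had changes of -0.09, 0.03 and -0.03 with q values of 0.962 or more. The first of these averaged 7.33 ± 0.27 at 63 dpn and 7.43 ± 0.22 at 28 dpn (SD, n = 6 each) and was lower in 3 of 6 pigs.

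No other gene of mitochondrial fatty acid oxidation was called. Of 25 genes of this list 16 were tested, 10 were lower and 6 higher, and CPT1A was the only one at an unadjusted P of 0.05 or less. The median change of the list was -0.10, against -0.00169 over all probe sets. CPT1B, the muscle form of the same enzyme, had a change of -0.16, and SLC25A20, the carrier that takes acylcarnitines across the inner membrane, one of -0.19. The acyl-CoA synthetase ACSL1, which activates long-chain fatty acids, had a change of -0.27 with an SE of 0.35. ETFA, which passes electrons from the acyl-CoA dehydrogenases, had one of 0.29, and none of these passed the test. The list mean was lower in 6 of 6 pigs with CPT1A and in 4 of 6 over the 15 other genes. Among genes that PPAR receptors control, PPARA itself, the receptor that drives CPT1A in liver, had a change of 0.36 and was higher in 6 of 6 pigs (q = 0.834). TXNIP, an inhibitor of thioredoxin that also curbs glucose uptake, had a change of -0.58 (q = 0.599), with 6 of 6 pigs lower and no overlap between the ages.

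**Figure D2:**
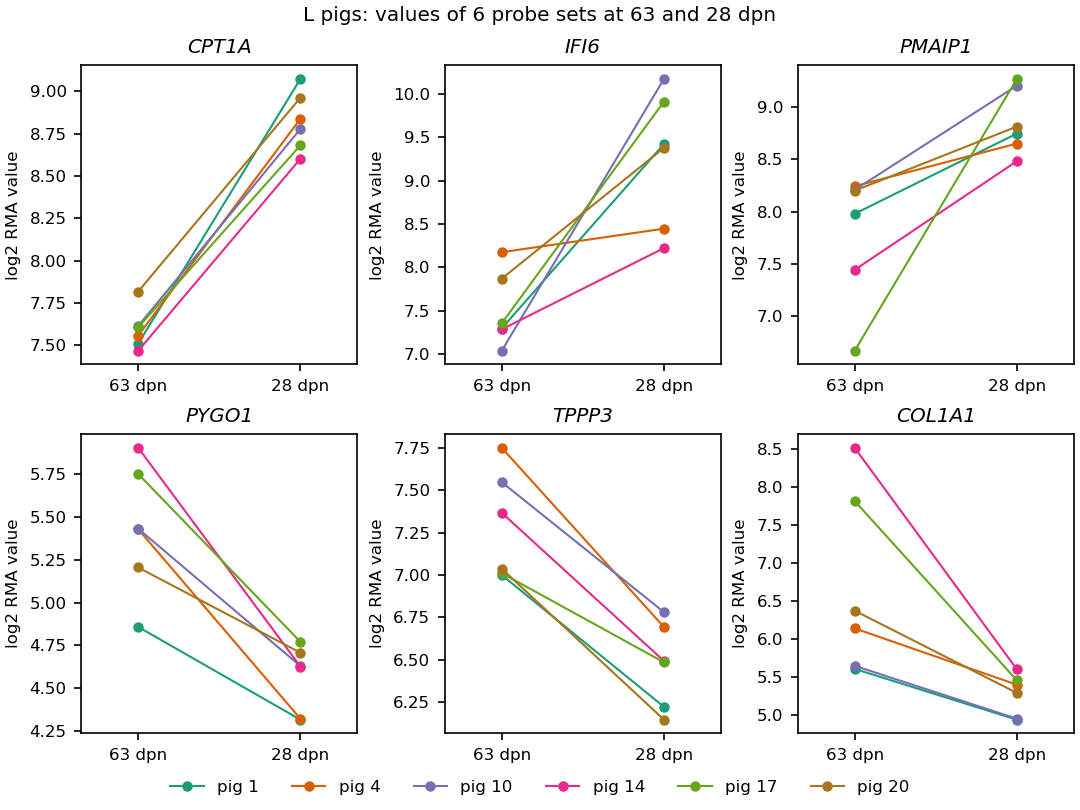
Log2 RMA values of 6 probe sets in the 6 L pigs, with 63 dpn on the left and 28 dpn on the right of each panel and a line for each pig; each panel has its own y axis. In all 6 panels the ages do not overlap, CPT1A shows nearly parallel lines, and COL1A1 is set apart by pigs 14 and 17 at 63 dpn.

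The largest increases at 63 dpn among named genes that moved the same way in 6 of 6 pigs came from a mixed set, and none of them was called. PYGO1, a cofactor of beta-catenin in Wnt signaling, had log2 values of 4.86, 5.43, 5.43, 5.91, 5.75 and 5.21 at 63 dpn in the order of pigs above, against 4.32, 4.32, 4.63, 4.63, 4.77 and 4.71 at 28 dpn. The ages did not overlap, and with a change of 0.87 and an SE of 0.15 it came closest to a call after CPT1A (limma, q = 0.0861). TPPP3, which binds and bundles microtubules, lay at 7.00, 7.75, 7.55, 7.37, 7.01 and 7.04 at 63 dpn, against 6.22, 6.69, 6.78, 6.49, 6.49 and 6.15 at 28 dpn. Here too all 63 dpn values were above all 28 dpn values, at a change of 0.81 with an SE of 0.20 (q = 0.491).

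PGM2L1 makes glucose-1,6-bisphosphate, a sugar phosphate that serves as cofactor of phosphoglucomutase. Its values were 9.94, 10.16, 9.80, 9.83, 9.13 and 10.36 at 63 dpn, against 8.76, 9.50, 8.69, 9.12, 8.57 and 9.12 at 28 dpn. Each pig was higher at 63 dpn, but the ages overlapped because pig 17 at 63 dpn lay below pig 4 at 28 dpn. The change was 0.91 with an SE of 0.20 (q = 0.402) on 1 of 2 probe sets, and the other probe set had one of 0.10. In the glycogen and hexose phosphate list no other of the 9 genes tested reached an unadjusted P of 0.05, and the median of the list was 0.03.

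The transcript BC015417.2 averaged 5.69 ± 0.52 at 63 dpn and 4.53 ± 0.50 at 28 dpn, a change of 1.16 with an SE of 0.23 (q = 0.261) that all 6 pigs shared although the ages overlapped. DOK1, an adaptor that dampens tyrosine kinase signaling, was at 0.92 (q = 0.687) and had a second probe set at 0.13. LOC100520032 had a change of 0.90 without overlap of the ages, and LOC100155532 one of 0.82 with overlap. The values of LOC100155532 were low, at 2.84 to 4.31 at 63 dpn and 2.04 to 3.12 at 28 dpn, all below the median of their array. SLA-DRB1, a beta chain of swine class II histocompatibility molecules and polymorphic in pigs, was at 0.85 on 1 probe set, while its other probe sets were at -0.07 each. ROCK1, a kinase that contracts the actin cytoskeleton, was at 0.86 with 5 of 6 pigs higher, but its other tested probe sets were at -0.16 and -0.17. RPL22L1, a ribosomal protein paralog, was at 0.70, LMO3, a transcription cofactor, at 0.67 and NFIC, a transcription factor of the nuclear factor I family, at 0.36, each higher in 5 of 6 pigs and none called. The array holds 2 probe sets named RPL22L1, 6 named LMO3 and 2 named NFIC, and 1 of each is given here. The unnamed probe set SNOWBALL_035901_st was higher in 6 of 6 pigs at a change of 0.60 (q = 0.687).

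Collagen transcripts held the largest increase of all probe sets tested, and their levels at 63 dpn differed between pigs. COL1A1, a chain of type I collagen that fibroblasts and osteoblasts make, was at 8.52 and 7.82 at 63 dpn in pigs 14 and 17, and at 5.61, 6.14, 5.65 and 6.37 in pigs 1, 4, 10 and 20. At 28 dpn the 6 pigs were between 4.94 and 5.60, below all values at 63 dpn. The change was 1.41 with an SE of 0.26 (q = 0.169), or 2.67-fold, and fell short of a call. The other 3 probe sets of COL1A1 that were tested had changes of 1.04, 0.49 and 0.31, and pigs 14 and 17 were highest at 63 dpn on the first 2 of them.

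COL1A2, which makes the partner chain, showed the same pigs on top, with 6.96 and 7.03 in pigs 14 and 17 at 63 dpn and 5.39 to 5.61 in the others. At 28 dpn it lay between 4.95 and 5.35, and the change was 0.85 (q = 0.491). LUM, a proteoglycan of the collagen matrix, was at 5.65 and 4.83 in these pigs at 63 dpn and at 3.13 to 3.74 in the others, against 2.55 to 3.86 at 28 dpn. SPARC, a collagen-binding matrix protein that platelets and osteoblasts also hold, reached 5.81 and 5.61 in pigs 14 and 17 at 63 dpn, against 4.54 to 4.96 over the 6 pigs at 28 dpn. Other transcripts that fibroblasts make did not all follow this order. Of 17 stromal genes looked at after these values had been seen, 13 were higher and 4 lower at a median of 0.18. Over all probe sets 49.6% were higher. The 4 at an unadjusted P of 0.05, all higher, were COL1A1, COL1A2, LUM and SPARC, the genes that led to this look. None of the others reached it, where 2.57% of all probe sets were higher at this P. Pigs 14 and 17 were the highest at 63 dpn for 6 of the 17, which were the same 4 with COL6A2 and BGN. The counts are thus no separate support. BGN (biglycan) was at 5.89 and 6.12 in pigs 14 and 17 at 63 dpn, against 4.83 to 5.60 over the 6 pigs at 28 dpn. DCN (decorin) was highest in pig 4 at 63 dpn, at 5.06, and was at 4.52 and 3.88 in pigs 14 and 17, against 3.59 to 4.36 at 28 dpn. COL3A1, the chain of type III collagen, had a change of 0.04, COL5A1 and COL6A3, chains of other collagens, of 0.05 and 0.04, fibronectin (FN1) of -0.02 and the fibroblast receptor PDGFRA of -0.14. Without pig 14 the change was 1.11 for COL1A1, 0.63 for COL1A2 and 0.61 for LUM. Without pig 17 it was 1.22, 0.66 and 0.91. What other cells these samples held was not tested.

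Interferon response genes were lower at 63 dpn throughout the list, without a call for any of them. All 19 genes tested of 22 were lower at 63 dpn, where 50.4% of all probe sets were lower. Of the 19, 15 (78.9%) were lower at an unadjusted P of 0.05 or less, against 3.12% of all probe sets, and 9 (47.4%) were lower in 6 of 6 pigs, against 2.96%. The smallest q was 0.402. These genes belong to 1 common response measured in the same 6 pigs and are not 19 separate observations. The lists were chosen with earlier results of these data known, so the shares are a description and not a test. The median change of the list was -0.96, with single genes from -1.79 to -0.14. Among the 30 other lists the medians ran from -0.40 to 0.17, and 35 of their 414 genes (8.45%) reached an unadjusted P of 0.05 in either direction, against 5.69% of all probe sets. Some genes belong to more than 1 list and are counted in each.

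**Figure D3:**
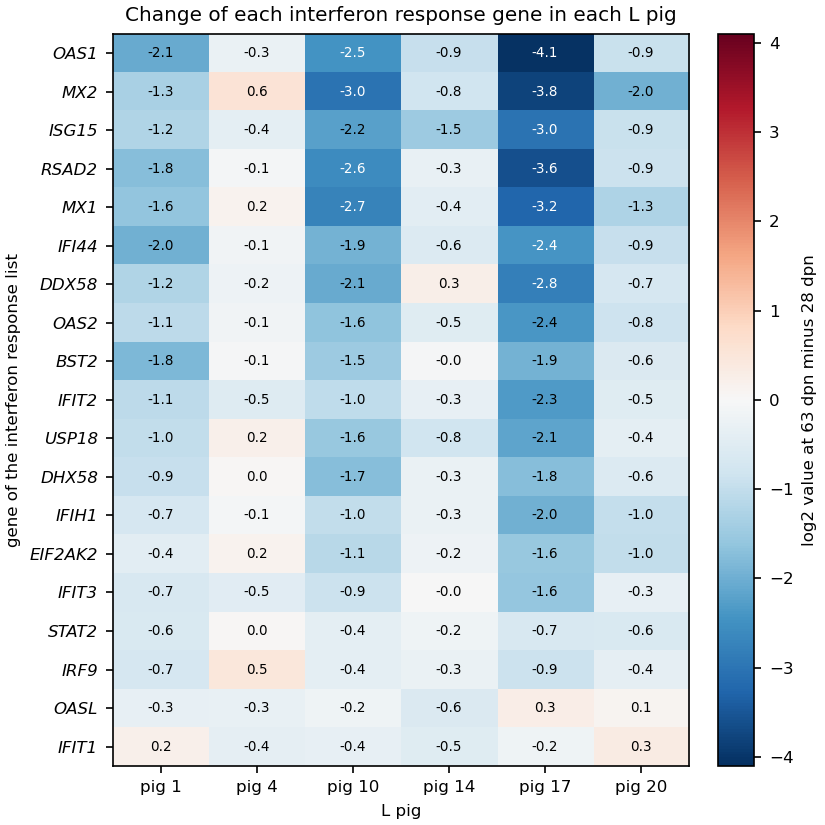
Log2 value at 63 dpn minus that at 28 dpn for the 19 interferon response genes tested (rows) in each of the 6 L pigs (columns), blue where the gene was lower at 63 dpn. Pigs 10 and 17 show the deepest decreases, down to -4.06 for OAS1 in pig 17, and pig 4 lies between -0.53 and 0.56.

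ISG15, a ubiquitin-like protein that interferon-treated cells attach to other proteins, had values of 8.47, 8.56, 8.58, 7.92, 8.24 and 9.03 at 63 dpn, against 9.72, 8.97, 10.82, 9.41, 11.25 and 9.95 at 28 dpn. All 6 pigs were lower, and only pig 20 at 63 dpn and pig 4 at 28 dpn brought the ages into overlap. The change was -1.55 with an SE of 0.35 (limma, q = 0.402), and its other probe sets gave -1.43 and -0.38. OAS1, which makes the oligoadenylates that activate RNase L, lay at 8.89, 9.82, 8.31, 7.87, 7.24 and 8.93 at 63 dpn, against 10.95, 10.10, 10.77, 8.81, 11.30 and 9.85 at 28 dpn. Its change was -1.79 with an SE of 0.47 (q = 0.501), and its other probe sets gave -1.91 and -0.99.

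IFI6, an interferon-induced membrane protein outside the list, showed no overlap of the ages, at 7.29, 8.17, 7.04, 7.28, 7.35 and 7.87 at 63 dpn, against 9.42, 8.44, 10.17, 8.22, 9.91 and 9.38 at 28 dpn. No 63 dpn value reached the lowest 28 dpn value, and the change was -1.76 with an SE of 0.41 (q = 0.449). RSAD2 (viperin), which blocks virus replication, averaged 7.36 ± 0.65 at 63 dpn and 8.89 ± 0.99 at 28 dpn, a change of -1.53 (q = 0.495). MX2 and MX1, dynamin-like antiviral GTPases, had changes of -1.73 and -1.52, each lower in 5 of 6 pigs. The RNA sensors DDX58 and IFIH1 were at -1.18 and -0.84, OAS2, a relative of OAS1, at -1.09, IFI44 at -1.32 and IFIT5, an RNA-binding protein outside the list, at -1.23. The 4 genes that missed an unadjusted P of 0.05 were STAT2 at -0.40 and IRF9 at -0.35, which together carry the interferon signal to the nucleus, OASL at -0.18 and IFIT1 at -0.14.

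The pigs differed widely in this response. The mean change over the 19 genes was -1.07, -0.08, -1.52, -0.44, -2.11 and -0.70 in pigs 1, 4, 10, 14, 17 and 20. In pig 10 all 19 genes were lower, in pigs 1, 14 and 17 it was 18, in pig 20 it was 17 and in pig 4 it was 12. The spread lay mainly at 28 dpn: the mean level of the 19 genes ran from 8.19 to 8.995 at 63 dpn and from 8.69 to 10.3 at 28 dpn. The pigs with the highest levels at 28 dpn, 17 and 10, also had the deepest decreases, which follows in part from the 28 dpn value standing in both measures. The median of the list was -0.72 without pig 17 and -1.18 without pig 4, and 14 to 16 genes stayed lower at an unadjusted P of 0.05 whichever pig was left out.

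Other genes lower at 63 dpn in 6 of 6 pigs included PMAIP1 (NOXA), a trigger of apoptosis that interferon and p53 induce, with values of 7.98, 8.24, 8.21, 7.44, 6.67 and 8.20 at 63 dpn and 8.75, 8.65, 9.20, 8.48, 9.27 and 8.81 at 28 dpn. The ages did not overlap, and the change was -1.07 with an SE of 0.26 (q = 0.491). CLEC7A, the receptor for fungal beta-glucan on myeloid cells, had a change of -1.19 (q = 0.636), with a value of 1.83 in pig 10 at 63 dpn against 3.41 to 5.02 in the others at that age and 4.47 to 6.53 at 28 dpn. The other 3 CLEC7A probe sets were at -0.61, -0.57 and -0.42. The microRNA probe set MIR374B, 1 of 3 of that name on the array, had a change of -1.04 (q = 0.501), with values of 2.29 to 3.53 at 63 dpn and 3.50 to 4.88 at 28 dpn, all below the median of their array. Of 1427 probe sets tested that carry microRNA names of pig or other species, 1314 in the probe set name and 113 in the gene symbol alone, 52 were higher and 57 lower at an unadjusted P of 0.05 or less, none was called, and their median change was 0.03. Over all probe sets 2.57% were higher and 3.12% lower at this threshold, and the counts were not read as a result about microRNAs. The lipid exporter ABCA1, named after its values had been seen, was at -0.89 with 5 of 6 pigs lower (q = 0.284), and its other probe set at -0.42.

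No gene of phosphate handling was called. Of 20 genes of phosphate transport and the FGF23 axis 12 were tested, 7 higher and 5 lower, at a median of 0.06, and 1 reached an unadjusted P of 0.05. This was GALNT3, whose glycosylation shields FGF23 from cleavage, higher in 6 of 6 pigs at a change of 0.41 with an SE of 0.18 (q = 0.831), although pig 1 was at 4.67 at both ages. The phosphate exporter XPR1 was at 0.15, the sodium-phosphate cotransporters SLC20A2 and SLC34A2 at 0.06 and 0.21 and the mitochondrial phosphate carrier SLC25A3 at 0.20. The FGF receptor FGFR3 was at -0.46 (q = 0.875). FGF23 itself, whose product is a bone hormone, was at -0.07, PHEX, an endopeptidase that restrains it, at -0.02 and PTH1R, the parathyroid hormone receptor, at 0.07. Standard errors in this list were 0.14 to 0.24, so changes of that order could not be told from 0.

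Of 17 vitamin D genes 10 were tested, at a median of 0.17. VDR, the calcitriol receptor, had a change of -0.02 with an SE of 0.17, and CYP27A1, which hydroxylates vitamin D in liver and macrophages, one of -0.11. NCOR1, a corepressor of nuclear receptors, was at 0.48 (q = 0.790) and GC, the vitamin D binding protein of plasma, at 0.39 (q = 0.853), each higher in 5 of 6 pigs. These and TXNIP, which calcitriol induces, were the 3 members at an unadjusted P of 0.05 or less. The values of GC were low, at 4.40 to 5.32 at 63 dpn and 4.26 to 4.62 at 28 dpn. They lay below the median of their array except in pig 10 at 63 dpn. The other tested probe set of TXNIP was at -0.32.

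Bone and osteoclast genes were represented by 20 of 28, with 14 higher, 6 lower and a median of 0.14. SMAD5, which carries bone morphogenetic protein signals, had a change of 0.51 and was higher in 6 of 6 pigs (q = 0.716). TNFRSF11B, the decoy receptor osteoprotegerin that keeps RANKL from its receptor, was at 0.41 (q = 0.799), the receptor RANK itself (TNFRSF11A) at 0.28 with 6 of 6 pigs higher and the ligand TNFSF11 at 0.18. CTSK, the collagen-cleaving protease of osteoclasts, was at -0.57 and lower in 5 of 6 pigs (q = 0.822). SPP1 (osteopontin), a matrix protein of bone and macrophages, was at 0.47 with 3 of 6 pigs higher, with the largest values at 63 dpn in pigs 14 and 17 (7.17 and 6.73, against 5.10 to 5.91 over the 6 pigs at 28 dpn). RUNX2, the master regulator of osteoblasts, was at 0.02. No gene of the vitamin D or bone lists was called.

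**Figure D4:**
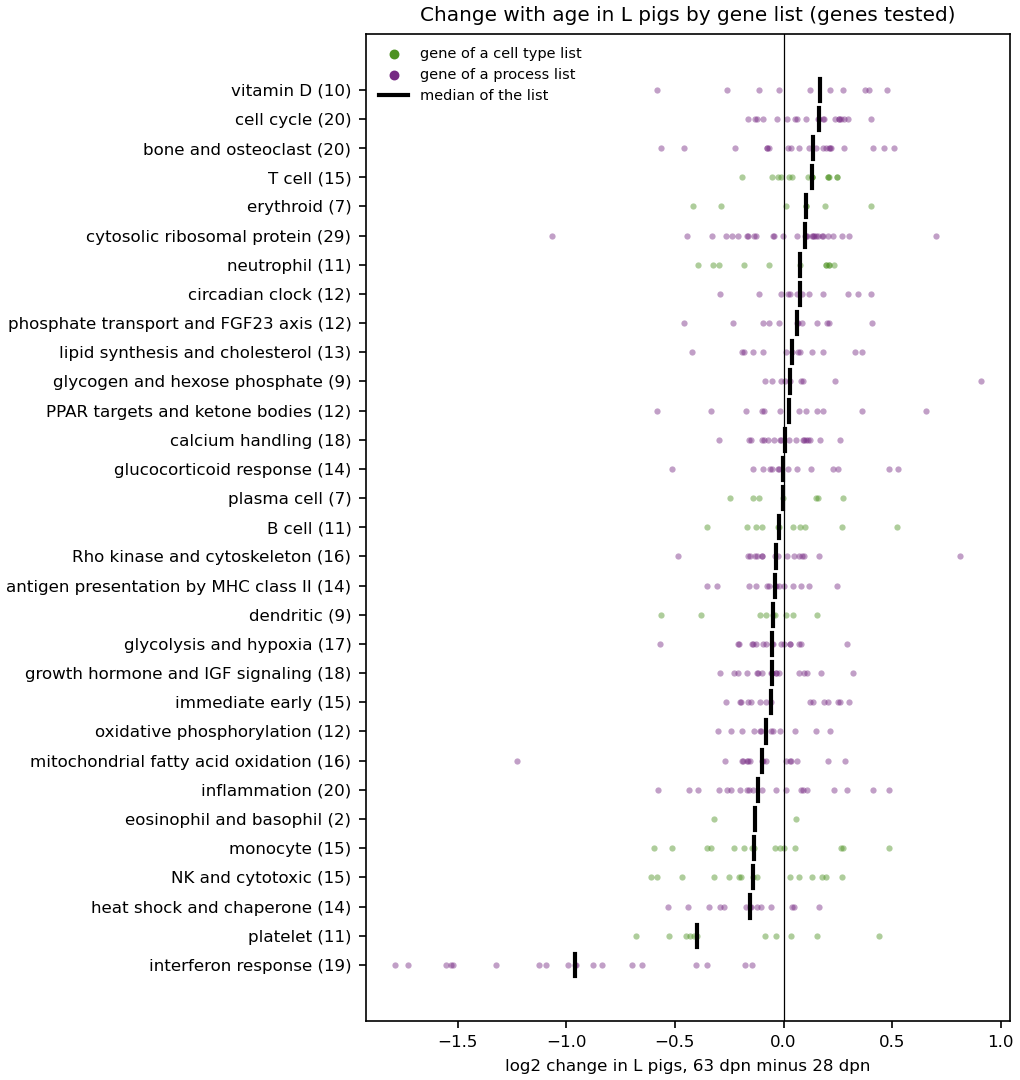
Log2 change in L pigs (63 dpn minus 28 dpn, x axis) of every gene tested in the 31 lists, 1 row for each list with the number of genes tested in brackets, green for cell type and purple for process lists, and a black bar at the median. The interferon response list lies apart at -0.96, the platelet list follows at -0.40, and the other medians are between -0.15 and 0.17.

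No cell type marker was called, and in whole PBMC samples fewer cells of a type and less RNA per cell cannot be told apart. T cell markers were higher for 11 of 15 genes at a median of 0.13, B cell markers had a median of -0.02, and monocyte markers one of -0.14, with the pig means higher in 3 of 6 pigs for each list. The list mean was lower in 5 of 6 pigs for dendritic cells (9 genes, median -0.05) and for eosinophils and basophils (2 genes, median -0.13). NK and cytotoxic markers had a median of -0.14, and the list means of the pigs lay between -0.05 and 0.30 at 63 dpn and between -0.70 and 1.12 at 28 dpn, relative to all arrays. Within this list KLRB1, a C-type lectin receptor of NK cells, was at -0.58 and lower in 6 of 6 pigs (q = 0.614). Erythroid list means lay between -0.25 and 0.41 at 63 dpn and between -0.26 and 0.15 at 28 dpn, and neutrophil list means between -0.35 and 0.17 at 63 dpn and between -0.50 and 0.42 at 28 dpn. The part of these cells in the results above was not tested.

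Platelet genes set apart the sample of pig 1 at 63 dpn. PPBP, a chemokine that platelets store, was at 2.94 in this sample, against 9.03 to 10.4 in the other 5 pigs at 63 dpn and 7.78 to 9.56 in all 6 at 28 dpn. TUBB1, the tubulin of platelets, was at 5.04 there, against 8.07 to 9.27 in the others at 63 dpn and 7.63 to 9.50 at 28 dpn, and ITGA2B, their fibrinogen receptor chain, at 5.38, against 7.37 to 8.53 and 6.89 to 8.31. The platelet median of -0.40 rested on this pig and was 0.22 without it. Without pig 1 the change of CPT1A was -1.16 and the interferon median was -0.94, with 15 genes lower at an unadjusted P of 0.05.

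The heavy chain locus IGHG (LOC396781 on the array) had 186 probe sets tested, of which 143 were higher and 43 lower, at a median of 0.14. At an unadjusted P of 0.05, 33 were higher and 0 lower, where 2.57% of all probe sets were higher, and 22 were higher in 6 of 6 pigs, where 1.95% of all probe sets were. The median was 0.09 in M and -0.10 in H pigs. Its clearest probe set averaged 6.70 ± 0.42 at 63 dpn and 5.59 ± 0.50 at 28 dpn, a change of 1.11 with an SE of 0.27 (q = 0.491). These probe sets share a target and were not counted as separate genes, and the plasma cell and B cell lists had medians of -0.00293 and -0.02. VPREB3, a chaperone of the immature B cell receptor, was at 0.52 with 5 of 6 pigs higher (q = 0.759). Cell cycle genes were higher for 15 of 20 at a median of 0.16, but 1 of them, the spindle protein NUSAP1 at 0.40 (q = 0.822), reached an unadjusted P of 0.05, and pig 17 went against the other pigs with a list mean of -0.20. Of the heat shock list 11 of 14 genes were lower, among them the HSP70 cochaperone DNAJA1 at -0.53 in 6 of 6 pigs (q = 0.616). Of the glycolysis and hypoxia genes 11 of 17 were lower, with HK3, a hexokinase of myeloid cells, at -0.57 in 6 of 6 pigs (q = 0.852). The mean change of the glycolysis and hypoxia list was -0.41 in pig 1 and between -0.12 and 0.12 in the other L pigs.

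The change in L pigs was then compared with that in M pigs (5 pairs) and H pigs (7 pairs), each against their own 28 dpn samples. No probe set was called for a difference between L and M (0%, smallest q 0.9999), and 563 (2%) had an unadjusted P of 0.05 or less. None was called between L and H (0%, smallest q 0.0738), and 4880 (17.4%) had an unadjusted P of 0.05 or less. By the same thresholds 0 probe sets (0%) were called between the ages in M pigs, with 1443 (5.14%) at an unadjusted P of 0.05, and 2935 (10.5%) in H pigs, 2004 (7.14%) of them higher at 63 dpn, with 6851 (24.4%) at an unadjusted P of 0.05. On the first principal component of all arrays, H pigs 11 and 12 at 63 dpn lay at -44.89 and -66.69. All other arrays lay between -31.94 and 37.68. What these pigs add to the H counts was not tested. The median SE of the L minus M difference was 0.254. Of all probe sets 124 differed by 1 or more in either direction, up to 2.02, and none was called. Differences far larger than the SE thus also went without a call.

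**Figure D5:**
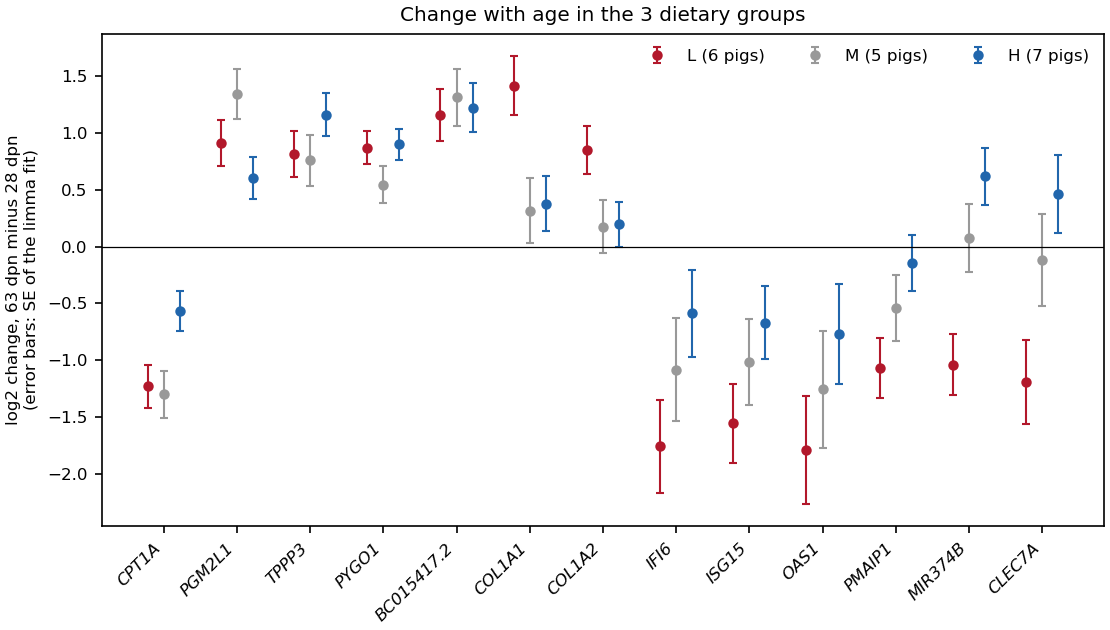
Log2 change between the ages (63 dpn minus 28 dpn, y axis) of 13 named genes in L (6 pigs), M (5 pigs) and H (7 pigs), with the SE of the limma fit as error bars. CPT1A lies at -1.23, -1.30 and -0.57 in the order L, M and H, IFI6, ISG15 and OAS1 lie below 0 in all 3 groups, and the changes of COL1A1 and COL1A2, which were chosen by their change in L, are larger in L than in the other groups.

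CPT1A had a change of -1.23 in L, -1.30 in M and -0.57 in H pigs. The difference L minus M was 0.07 with a 95% interval from -0.51 to 0.66, and L minus H was -0.66 with an interval from -1.20 to -0.12 (q = 0.129). CPT1A was picked for its change in L, and the differences use the same L values, which leans them toward a larger change in L. In L, M and H the change of PGM2L1 was 0.91, 1.34 and 0.60, that of TPPP3 0.81, 0.76 and 1.16, that of PYGO1 0.87, 0.54 and 0.90 and that of BC015417.2 1.16, 1.31 and 1.22. Of the 12 largest increases in L, 10 had the same sign in M and 10 in H, and of the 12 largest decreases 11 had it in M and 10 in H. Over all probe sets the sign of the L change was shared by 61.2% in M and 43.3% in H.

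Interferon response genes had a median change of -0.96 in L, -0.74 in M and -0.16 in H pigs. For 0 of the 19 genes the L minus M difference reached an unadjusted P of 0.05 (2% of all probe sets did), and for 5 of 19 the L minus H difference did (17.4% of all probe sets), with none called in either. COL1A1 had a change of 1.41 in L, 0.31 in M and 0.38 in H, with 95% intervals of the difference from 0.30 to 1.90 for L minus M and from 0.30 to 1.77 for L minus H, and neither was called. MIR374B had a change of -1.04 in L, 0.08 in M and 0.62 in H, and its L minus H difference was -1.66 (q = 0.102). The change of CTSK was -0.57, 0.03 and 0.61 in L, M and H (q = 0.102 for L minus H), and that of CD163, the haemoglobin scavenger receptor of monocytes and macrophages, -0.51, -0.28 and 0.97 (q = 0.102). In pig 1 CD163 went from 7.60 at 28 dpn to 5.80 at 63 dpn, while the other L pigs were at 5.64 to 6.81 at 28 dpn. In H pigs the changes of CTSK and CD163 were called (q = 0.0469 and 0.0197), in L pigs they were not (q = 0.822 and 0.885). COL1A1 and MIR374B were chosen by their change in L. CTSK and CD163 were named among the members of their lists with the lowest P in L, and are given here for their L minus H difference. The differences use the same L values, which leans them toward a larger change in L. For CTSK and CD163 the choice also leans toward a large L minus H difference. The monocyte list as a whole had medians of -0.14, -0.06 and 0.74.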

How the data were processed

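RNA of PBMC was hybridised by the authors to porcine snowball arrays, read with GCOS 1.1.1 (submitters' processing notes) and normalized by RMA. The deposited table gives log2 values for 47845 probe sets in 37 arrays and was not rescaled. Control probe sets (123) were left out, and 28086 passed the study's filters (SD over 0.23 and mean over 2.5 over all arrays). Genes were named through the platform annotation, in which 426 probe sets were given a current symbol, and 15357 of those tested had a symbol.

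Tests used R 4.3.3 and limma 3.58.1 (lmFit, eBayes) with the 36 arrays of the 18 pigs sampled at both ages, pig as a fixed block and an age effect within each diet, which left 15 residual degrees of freedom. The study's model had sire, which is not in the labels used here; the block takes its place. q values are Storey's (lambda 0.05 to 0.95 in steps of 0.05, spline with 3 degrees of freedom), and a call needed P and q of 0.05 or less. Arrays with the same number in the title were taken as the same pig, and on this reading the labels hold 19 pigs, 1 more than the 18 with both ages. The study describes 18 piglets, and the labels do not explain the difference. The data bear little trace of the pairing: residuals of same-numbered arrays around the group means correlated at -0.01 to 0.20 in the 6 L pigs and at -0.16 to 0.24 in all 18, and the estimated within-pig correlation was -0.00581.

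Named genes are the called one, the 12 largest increases and 12 largest decreases at an unadjusted P of 0.01 or less with 6 of 6 pigs on the same side, 9 probe sets from the study's lists (TPPP3 and PGM2L1 listed for M and H, the others for L), up to 4 members of each of 31 lists by lowest P, and members of the fatty acid oxidation, phosphate and vitamin D lists. ABCA1, MX1, OASL, IFIT1, STAT2, IRF9, PPBP, the stromal genes other than COL1A1, COL1A2, LUM and SPARC, TNFRSF11A, TNFSF11 and RUNX2 were added with their values known. A gene in a list is represented by its probe set of highest mean. Many genes have further probe sets on the array, which are given only where the text says so. The members and lists were chosen with earlier results of these data known. A simulation of the L comparison, with 200 of 28086 probe sets changed, recovered 14.7% of changes of 0.5, 80.3% of changes of 1 and 98.5% of changes of 1.5, and 9 of 137 calls were false. It drew independent noise for each probe set, and its many calls made the q threshold easier to reach. The real L comparison had 1 call, so these shares do not carry over to it. Alternatives covered the block, a random pig effect, adjustment, variances, filters, scaling, array weights, the 12 L arrays alone, each L pig left out and, added after seeing the data, H pigs 11 and 12 left out.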

Additional observations from a re-analysis of the deposited data

Results flagged for a closer look

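In groups of 6 values, samples were marked where the gap of the highest or lowest to its neighbour exceeded Dixon's 95% limit as a share of the whole range. Of 89 groups of 6 examined among the named probe sets and the list means, 11 met this, where chance gives about 1 in 20. At 63 dpn MIR374B was lowest in pig 20 at 2.29, next to 3.11. RPL22L1 was lowest in pig 17 at 6.19, next to 7.16, and SLA-DRB1 highest in pig 17 at 8.99, next to 7.93. The probe set SNOWBALL_035901_st was lowest in pig 17 at 63 dpn (8.48, next to 8.95) and highest in pig 10 at 28 dpn (9.15, next to 8.43).

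The mean change of the platelet list was -2.79 in pig 1, next to -0.21. In the same pig that of the inflammation list was -0.45, next to -0.06, and that of the glycogen and hexose phosphate list -0.13, next to 0.13. Pig 4 stood apart for dendritic markers at 0.0241, next to -0.11, and for the 2 eosinophil and basophil markers tested at -0.61, next to -0.10. Pig 17 had a cell cycle change of -0.20, next to 0.09. What set these samples apart was not tested.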

How the results depend on the processing

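The number of probe sets called for 63 against 28 dpn in L pigs moved with the model. It was 0 without the replicate block (1552 at an unadjusted P of 0.05 or less) and 0 with pig as a random effect, 0 with unmoderated variances, 0 without the filters and 0 with arrays centred on their medians; q of CPT1A was then 0.0625, 0.0665 and 0.153 in the first 3 and 0.0622 in the last. It was 2 with the replicate block on the 12 L arrays alone (CPT1A and SNOWBALL_035866_st) and 9 with array weights, 6 of them higher at 63 dpn, among them PYGO1, COL1A1, BC015417.2 and PGM2L1. With 1 L pig left out it was 0 to 0. It stayed 1 with Benjamini-Hochberg adjustment, the stricter filter, repeated quantile normalization, the 12 L arrays without the block and without H pigs 11 and 12, which was chosen after seeing the data. The L minus M count was 0 throughout. The L minus H count was 7 with unmoderated variances, 105 with array weights (27 higher in L) and 0 to 2 with 1 L pig left out, 2 being without pig 4. The interferon count was 14 to 17 over all alternatives, of 17 genes tested under the stricter filter (15 lower) and of 19 under the others. Centring moved the median of all probe sets by -0.01. With 6 pigs and a median SE of 0.171, changes of 0.5 were mostly out of reach. Larger ones mostly were too: of 67 probe sets that changed by 1 or more in either direction, only CPT1A was called in the main fit.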
